A study of Rattus norvegicus with 6 samples.

Results

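Adhesion G protein-coupled receptors are cell surface receptors with a long extracellular region that binds matrix and membrane proteins, joined to a membrane-spanning region that signals through G proteins. Most of them are cut by their own GAIN domain into an extracellular and a membrane-bound fragment, which stay together, and a short stretch of the receptor next to the cut can act as a tethered agonist. In the peripheral nerve the family is known from Adgrg6 (Gpr126), which drives Schwann cell myelination through cAMP, and from Adgrg1 (Gpr56), which acts in Schwann cell sorting of axons. The receptors described here were chosen by symbol from a list of 10 names: Adgre5, Adgrf5, Adgrl1, Adgrl2, Adgrl3, Adgrg1, Adgrg6, Adgrb2, Adgrb3 and Adgra3. Of these, 8 were measured among the 17327 genes of the count tables, and Adgrg6 and Adgra3 were not analysed here. The count filter was passed by 6 of them, and Adgrb2 and Adgrb3 fell below it. The list was put together with results of the NRG1 comparison known, so the changes given here describe these genes and are not independent evidence of a response of the family.

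Poly(A) RNA was sequenced from cultured Schwann cells, which ensheath peripheral axons, purified from sciatic nerves of adult Wistar rats. All cells had been starved for 18 h in medium with 2% serum and 10 μM forskolin, which raises cAMP, and the growth medium before that held forskolin and a neuregulin, named glial growth factor in the labels and NRG1β1 in the methods. The NRG1 samples then received 10 nM soluble NRG1β1, an ErbB receptor ligand, for 6 h in the same medium, and the mock samples received its buffer (PBS with 1% albumin). Each of 3 independent cultures, called replicates 1, 2 and 3, gave 1 mock and 1 NRG1 sample. Cells cultured without axons differ from those in nerve, and forskolin was present in both groups, so the comparison is of NRG1 under raised cAMP. Counts on genes ranged from 6821590 to 15475018 per library, so that 3 counts, taken as the floor, equalled 0.194 to 0.444 CPM (counts per 1000000 of the normalized library).

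Replicate 1 stood apart from the other cultures. Sox10, Erbb3, Ngfr and S100b, which mark Schwann cells, were counted in all 6 libraries, but the summed level of 6 Schwann markers was 5273 CPM in mock 1 and 4412 CPM in NRG1 1, against 10970 to 13940 CPM in the other 4 libraries. Several fibroblast and pericyte markers went the other way. Thy1, a surface protein of fibroblasts, was at 1268 CPM in mock 1 and 1143 CPM in NRG1 1 and had no count in replicates 2 and 3, and Dcn, Lum, Rgs5 and Kcnj8 showed the same pattern. Pdgfra, a fibroblast receptor, was at 870.1 and 827.2 CPM in the replicate 1 libraries and at most 1.61 CPM in the others. Pi16, also on the fibroblast list, did not share this pattern, at 5.21, 5.03 and 5.12 CPM in mock samples 1, 2 and 3. The summed fibroblast list, which is mostly Col1a1, ranged from 13630 to 31030 CPM in mock and from 13420 to 34500 CPM in NRG1 samples. All 7 of its genes had a count, but Col1a2, the partner chain of Col1a1, had 2 counts in 1 library and 0 in the other 5, so a count of 0 in these tables need not mean that a transcript was missing. The summed pericyte list, counted for all 5 of its genes, was at 3101 and 3161 CPM in replicate 1 and at 227.4 to 411.7 CPM in the others. The summed Schwann markers were also lower in the NRG1 sample than in the mock sample of each replicate. Of these 6 markers, Cdh19 and S100b had log2 fold changes of -1.10 and -0.58 with NRG1 (edgeR adjusted p = 7.9e-05 and 0.0088). The other 4 did not pass an adjusted p of 0.01. In bulk RNA, fewer cells of a type and less RNA per cell cannot be told apart. Changes are also given without replicate 1 where that moves a call of a receptor.

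**Figure D1:**
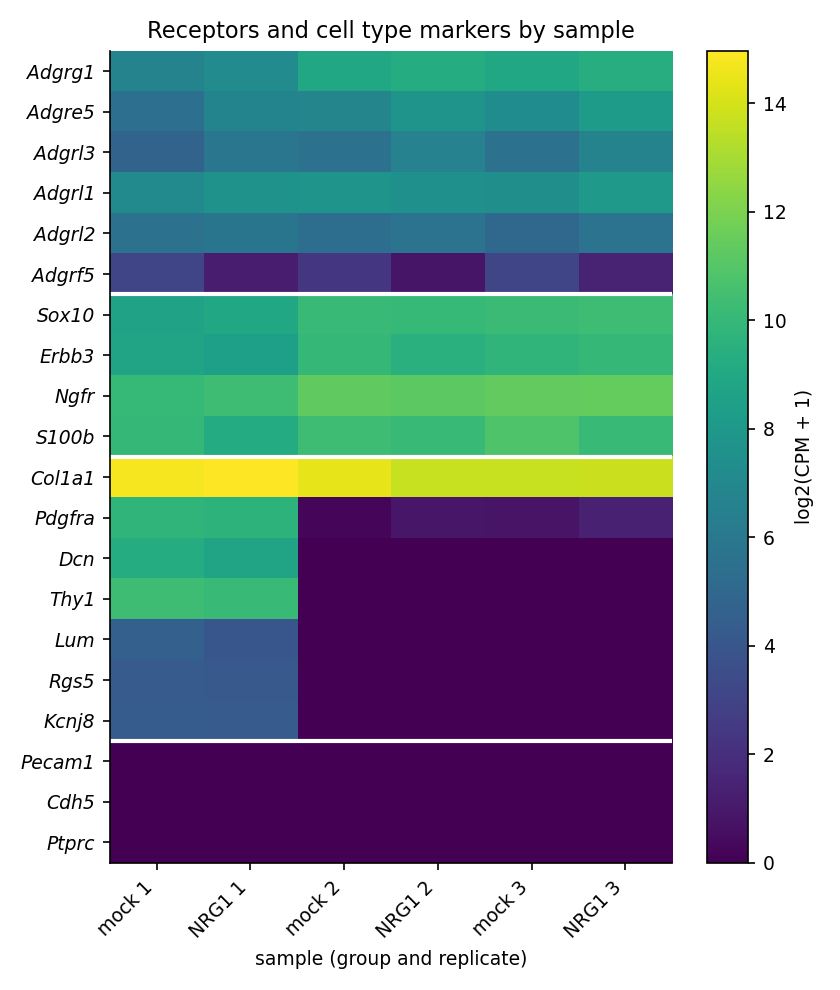
Level of 6 receptors, 4 Schwann cell markers, 7 fibroblast and pericyte markers and 3 endothelial or leukocyte markers (rows) in each of the 6 samples (columns, ordered by replicate), coloured by log2(CPM + 1). Dcn, Thy1, Lum, Rgs5 and Kcnj8 are counted in both replicate 1 libraries and are at 0 in the other 4, and Adgrg1, Adgre5 and Adgrl3 are lower in replicate 1 than in either other replicate within each group.

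Among the 6 receptors past the filter, Adgrl3 rose 2.11-fold and Adgre5 2.06-fold with NRG1 and Adgrf5 fell 5.04-fold, while Adgrg1, Adgrl1 and Adgrl2 did not pass the test. A gene is said to have risen or fallen at an adjusted p of at most 0.01 in edgeR's quasi-likelihood test with the replicate as a block, and is called regulated where the log2 fold change (below, log2 change) of NRG1 over mock is also beyond 1 in either direction. Thus 2 receptors were called up and 1 down, where 1.56% of all 9740 genes tested were called up, 1.91% were called down and 3.47% were called in either direction. The median log2 change of the 6 receptors was 0.39, against -0.03 over all genes tested. Since the names were picked with this comparison known, nothing is read from these shares.

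For Adgre5 and Adgrf5, the 2 called receptors with an entry in the RefSeq promoter table of the GRCr8 assembly, the 250 bases before the annotated start are printed to show the sequence next to the genes whose transcripts changed. The windows are chr19:41303388-41303637 on the plus strand for Adgre5 and chr9:25121238-25121487 on the minus strand for Adgrf5. An entry was found for 8 of the 10 names and not for Adgrl1 or Adgrl3. Of 6 motifs searched on both strands, capitals mark matches to 5: AP-1 (TGANTCA), CRE (TGACGTCA), the CRE half-site (TGACG), the GC box (GGGCGG) and an Egr motif (GCGNGGGCG).
Adgre5: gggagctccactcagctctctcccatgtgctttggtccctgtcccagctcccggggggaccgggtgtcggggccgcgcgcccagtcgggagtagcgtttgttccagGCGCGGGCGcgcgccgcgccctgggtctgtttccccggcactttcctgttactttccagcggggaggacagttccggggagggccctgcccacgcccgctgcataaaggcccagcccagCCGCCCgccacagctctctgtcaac
Adgrf5: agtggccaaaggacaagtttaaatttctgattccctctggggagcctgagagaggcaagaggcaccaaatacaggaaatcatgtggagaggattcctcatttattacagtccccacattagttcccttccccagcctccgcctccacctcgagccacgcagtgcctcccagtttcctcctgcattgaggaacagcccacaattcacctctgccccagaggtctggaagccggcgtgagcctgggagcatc
The Adgre5 window held 1 match to the Egr motif, which 4.29% of 33469 promoter windows of this length hold, and 1 to the GC box, which 30.5% hold, and the matches do not overlap each other. The Adgrf5 window held none of the 5. The sixth, the E-box (CANNTG), had 1 match in each window, is not in capitals and was found in 65.5% of all windows. AP-1 was found in 6.34%, the full CRE in 1.59% and its half-site, which every full CRE also contains, in 18.2% of all windows. The GC content was 70.0% in the Adgre5 window and 54.8% in the Adgrf5 window, with a median of 51.2% over all windows. A match is only a description of these letters.

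The latrophilins Adgrl1, Adgrl2 and Adgrl3 are receptors for teneurins and FLRT proteins on neighbouring cells. Adgrl3 was at 25.8, 49.0 and 49.8 CPM in mock samples 1, 2 and 3 and at 58.5, 97.9 and 104.3 CPM in NRG1 samples 1, 2 and 3. Each NRG1 sample was above all mock samples, and both replicate 1 samples were the lowest of their group. The mean went from 41.5 ± 13.6 to 86.9 ± 24.8 CPM (SD, n = 3 each), and the fitted log2 change was 1.08 (standard error, SE, 0.12, edgeR adjusted p = 3.6e-05). It was the 84th gene of 9740 by p-value, and its log2 ratios within replicates 1, 2 and 3 were close together at 1.18, 1.00 and 1.06. Without replicate 1 the log2 change was 1.04.

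The other latrophilins did not pass the test. Adgrl1 was at 139.9, 216.6 and 176.9 CPM in mock samples 1, 2 and 3 and at 202.6, 185.4 and 257.3 CPM in NRG1 samples 1, 2 and 3. The groups overlap, since in replicate 2 the NRG1 sample was the lower one, with a log2 ratio of -0.22 against 0.53 and 0.54 in replicates 1 and 3. Its log2 change was 0.29 (SE 0.15, edgeR adjusted p = 0.19), and 0.54 without replicate 2, where the edgeR adjusted p was 0.0061. Adgrl2 was at 48.9, 42.3 and 32.5 CPM in mock samples 1, 2 and 3 and at 55.1, 50.6 and 50.0 CPM in NRG1 samples 1, 2 and 3. Here the groups did not overlap, by a margin of about 1 CPM, and the log2 ratios were 0.17, 0.26 and 0.62. The log2 change of Adgrl2 was 0.35 (SE 0.13, edgeR adjusted p = 0.069), a difference between the groups that the test did not call. Within every replicate Adgrl3 had the largest log2 ratio of the 3 latrophilins, and this difference between receptors was not tested. Groups that do not overlap were found for 20.1% of all genes tested and for Adgrl2, Adgrl3 and Adgrf5 among the 6 receptors.

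**Figure D2:**
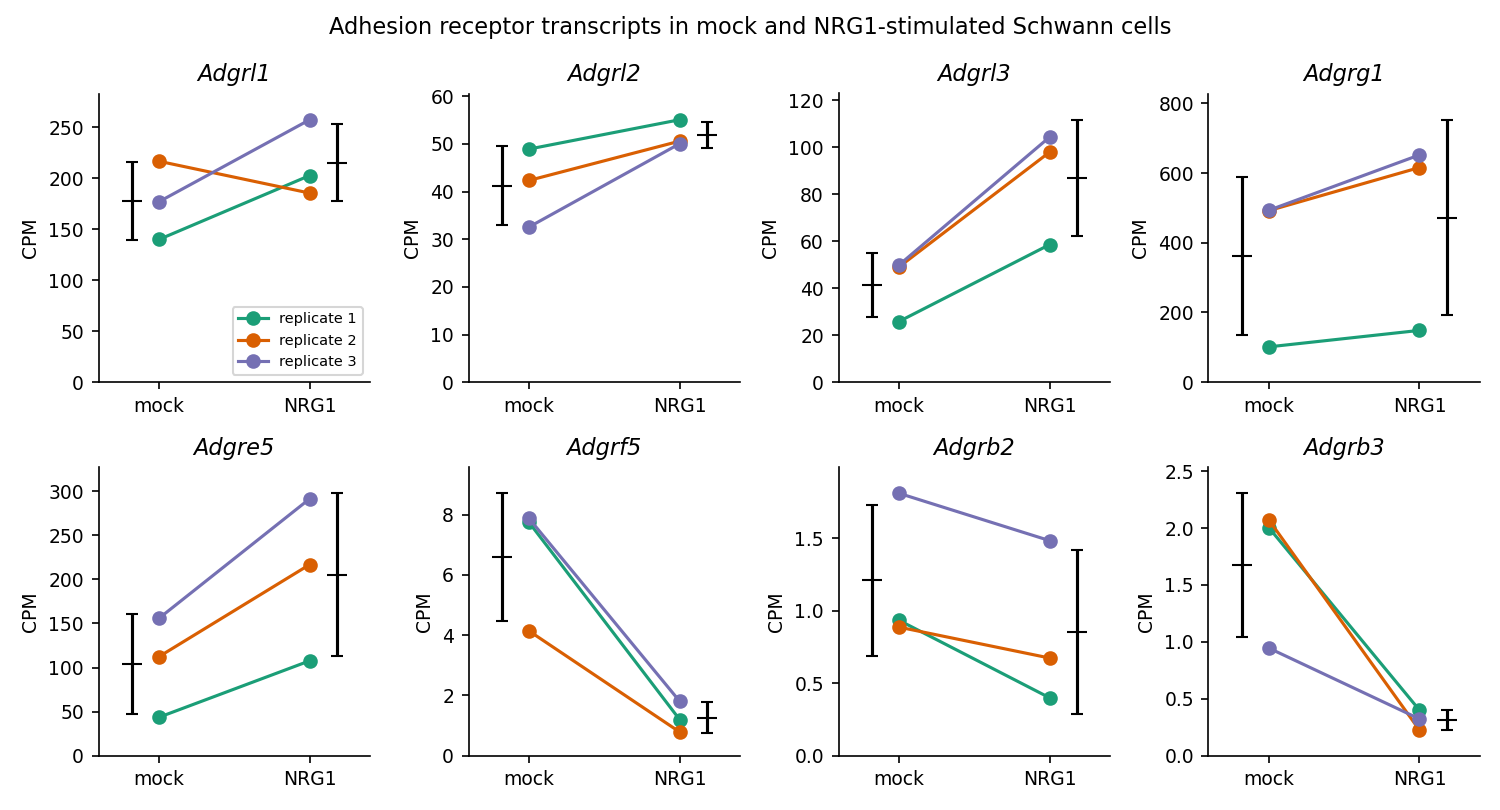
Level in CPM (vertical axes, each from 0) of the 8 measured receptors in mock and NRG1 samples, with a line joining the samples of each replicate and bars giving the mean and SD of 3 samples. Adgrl3 and Adgre5 rise and Adgrf5 falls in all 3 replicates, while Adgrl1 rises in 2 and falls in 1, and Adgrb2 and Adgrb3 rest on at most 23 counts per library.

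Adgre5, also known as Cd97, is a receptor of leukocytes and many other cells that binds the complement regulator Cd55 and the surface protein Thy1. It was at 43.6, 112.3 and 155.8 CPM in mock samples 1, 2 and 3 and at 107.6, 216.8 and 291.4 CPM in NRG1 samples 1, 2 and 3. The groups overlap, because NRG1 1 lay below mock 2 and mock 3, but the NRG1 sample was the higher one in each replicate. The mean went from 103.9 ± 56.6 to 205.3 ± 92.5 CPM (SD, n = 3 each), and the fitted log2 change was 1.04 (SE 0.13, edgeR adjusted p = 6.6e-05), with log2 ratios of 1.30, 0.95 and 0.90 in replicates 1, 2 and 3. Replicate 1 decides whether Adgre5 passes the fold change threshold: without it the log2 change was 0.93 (edgeR adjusted p = 7.4e-06), still a rise but no longer called regulated. The leukocyte genes Ptprc and Adgre1 had no count in any library, and the summed level of the 7 macrophage markers was 3.23 to 10.3 CPM in mock and 3.71 to 8.27 CPM in NRG1 samples.

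In the GRCr8 annotation the span of Adgre5 overlaps Ddx39a, a protein-coding gene for an RNA helicase, which lies on the opposite strand. Ddx39a had 288, 390 and 881 counts in mock samples 1, 2 and 3 and 583, 1109 and 1899 counts in NRG1 samples 1, 2 and 3, and its log2 change was 0.98 (SE 0.12, edgeR adjusted p = 7.9e-05), close to that of Adgre5. The library kit named in the labels does not mark strand, so reads from a stretch that both genes share cannot be told apart. Whether such reads entered the Adgre5 count at all, and how many, was not tested, and the annotation of the assembly used for counting was not used here. None of the other 5 receptors past the filter overlapped a protein-coding gene in this annotation. Adgrl1 is the neighbour of Adgre5, with 0 protein-coding genes between them.

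Adgrf5 (Gpr116), known from lung and endothelial cells, was the receptor that fell. It had 58, 28 and 100 counts in mock samples 1, 2 and 3 and 9, 7 and 28 counts in NRG1 samples 1, 2 and 3, which is 7.75, 4.14 and 7.88 CPM against 1.20, 0.787 and 1.81 CPM. Every NRG1 sample was below every mock sample. The mean went from 6.59 ± 2.12 to 1.27 ± 0.51 CPM (SD, n = 3 each), and the fitted log2 change was -2.33 (SE 0.28, edgeR adjusted p = 7.1e-05). Among all genes tested it held position 21 by the size of the change, and its log2 ratios in replicates 1, 2 and 3 were -2.50, -2.13 and -2.01. Without replicate 1 the log2 change was -2.20. With at least 10 counts required in every sample Adgrf5 was not tested, since NRG1 samples 1 and 2 had fewer.

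Endothelial markers were read beside Adgrf5. Of 7, Pecam1, Cdh5, Emcn and Esam had no count in any library. The summed level of the list, nearly all of it Tek, was 9.62 to 15.1 CPM in mock and 6.00 to 9.10 CPM in NRG1 samples, so that it was lower with NRG1 as well. Tek, a receptor for angiopoietins, had a log2 change of -0.62 (SE 0.19, edgeR adjusted p = 0.028). Their part in the Adgrf5 result was not tested.

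Adgrg1 binds collagen III and transglutaminase 2 and couples to G12 and G13 proteins. It was at 101.3, 492.2 and 493.2 CPM in mock samples 1, 2 and 3 and at 148.6, 616.0 and 652.1 CPM in NRG1 samples 1, 2 and 3. Both replicate 1 samples were far below the other 4, and the groups overlap for that reason. The NRG1 sample was higher in each replicate, by log2 ratios of 0.55, 0.32 and 0.40, and the log2 change was 0.42 (SE 0.12, edgeR adjusted p = 0.022), which does not pass the threshold of 0.01. The value was 0.37 (adjusted p = 0.16) without replicate 1, while DESeq2 with the same block passed Adgrg1 at an adjusted p of 0.0056.

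Adgrb2 and Adgrb3 belong to the brain angiogenesis inhibitor group, and Adgrb3 binds C1q-like proteins. Adgrb2 had 7, 6 and 23 counts in mock samples 1, 2 and 3 and 3, 6 and 23 counts in NRG1 samples 1, 2 and 3. Adgrb3 had 15, 14 and 12 counts in mock and 3, 2 and 5 counts in NRG1 samples, so that it was lower in each NRG1 sample, 2 of which were at or under the floor of 3 counts. Summed over the group and scaled to depth, mock was 4.85 times NRG1 for Adgrb3, with an exact 95% interval of 2.39 to 10.9 from 41 against 10 counts, and 1.33 times for Adgrb2 (0.804 to 2.22, from 36 against 32 counts). These intervals cover counting error only. With no count filter, edgeR gave Adgrb3 a log2 change of -2.24 (SE 0.61, adjusted p = 0.0035) and Adgrb2 one of -0.50 (SE 0.51, adjusted p = 0.60). Adgrb3 passed the filter and was called regulated, downward, when replicate 1 or replicate 3 was left out. It passed there only through its mock samples, since no NRG1 sample had more than 5 counts. These calls thus rest on entry through the group where it was high and are not separate support for a fall.

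**Figure D3:**
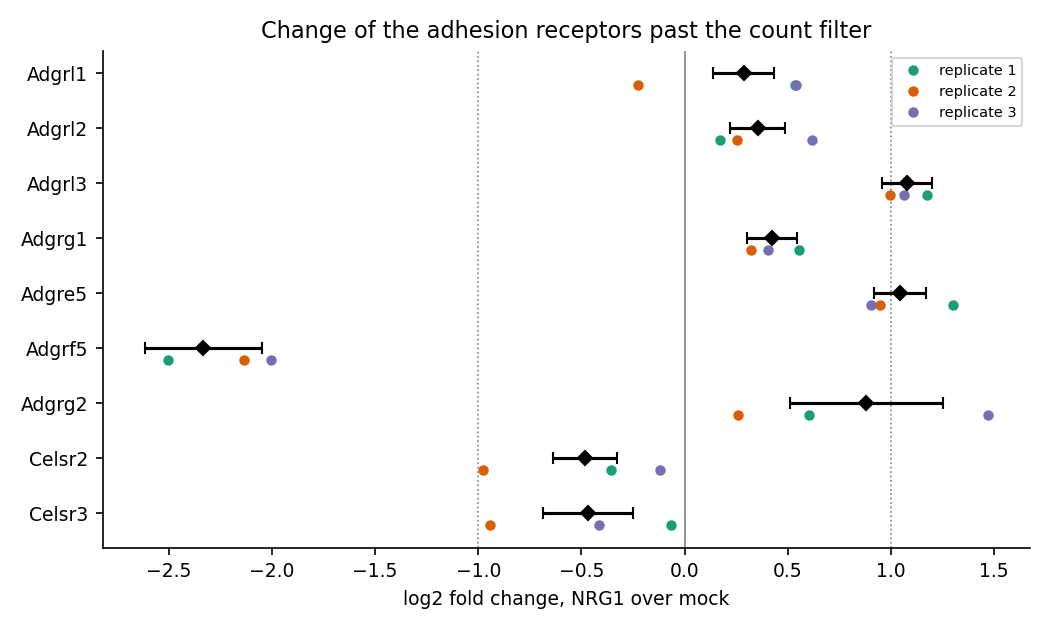
Log2 fold change of NRG1 over mock (horizontal axis) for the 6 receptors past the count filter and for Adgrg2, Celsr2 and Celsr3. Diamonds and bars are the fitted value and its SE, points are the log2 ratios of single replicates, and dotted lines mark a log2 change of 1 in either direction; Adgrl3 and Adgre5 lie just beyond the upper line and Adgrf5 lies beyond the lower one.

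The family as a whole was looked up under 32 current gene names and their older symbols. Of these, 18 were measured, 15 had at least 1 count and 9 passed the filter, so that Adgrg2, Celsr2 and Celsr3 are added to the 6 receptors above. Celsr2, an atypical cadherin of planar cell polarity, was at 460.8, 835.5 and 707.7 CPM in mock samples 1, 2 and 3 and at 359.3, 423.8 and 652.5 CPM in NRG1 samples 1, 2 and 3. It was lower with NRG1 in each replicate, with overlapping groups and a log2 change of -0.48 (SE 0.16, edgeR adjusted p = 0.036). Celsr3, its relative, had a log2 change of -0.47 (adjusted p = 0.14), and Adgrg2 (Gpr64) one of 0.88 (adjusted p = 0.10) from 9 to 36 counts per library. None of these 3 passed the test, although Celsr2 did with no count filter (adjusted p = 0.0048). Adgre1, Adgrg7 and Adgrl4 had no count in any library, which allows up to the floor of 3 counts, and Adgrf3, Adgrg5, Bai1 and Emr4 had at most 17 counts in any library.

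The choice of names used the NRG1 comparison and not the differences between cultures. The quasi-likelihood test of the replicate terms in the same fit, added after the data had been seen, passed an adjusted p of 0.01 for 23.4% of all genes tested and for 3 of the 6 receptors. These were Adgrg1 (edgeR adjusted p = 6.9e-08), Adgre5 (4.3e-06) and Adgrl3 (0.0005). Mock 2 and mock 3 were 4.86 and 4.87 times mock 1 in Adgrg1, 2.58 and 3.58 times in Adgre5, and 1.90 and 1.93 times in Adgrl3. Thus for Adgrg1 and Adgre5 the cultures differed by more than NRG1 changed them. Adgrf5 (adjusted p = 0.075), Adgrl2 (0.22) and Adgrl1 (0.30) did not pass. The summed Schwann markers were lower, and several fibroblast and pericyte markers higher, in replicate 1, with the values given above. Their part in the culture differences was not tested.

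Known ligands and partners of the receptors were listed under 24 names, 19 of which were measured and 10 of which passed the filter. In this list Tgm2 rose and C1ql3, Prnp and Cd55 fell, while the other 6 did not pass the test. Of all genes tested, 6.31% rose and 5.51% fell at the same adjusted p, and the median log2 change of the 10 was -0.37, against -0.03 over all genes. Lama2, Lamb1, Col4a2, Tenm1 and Fndc4 were not analysed here.

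Of the listed partners of Adgrg1, Tgm2 rose and Col3a1 did not pass the test. Tgm2, the transglutaminase that binds its extracellular region, was at 1.74, 2.07 and 3.86 CPM in mock and at 13.6, 54.4 and 40.5 CPM in NRG1 samples 1, 2 and 3, with no overlap. Its log2 change was 3.69 (SE 0.25, edgeR adjusted p = 6.7e-07). Col3a1, the collagen III chain, was at 22400 and 23220 CPM in mock 1 and NRG1 1, at 837.8 and 278.6 CPM in replicate 2 and at 442.5 and 169.9 CPM in replicate 3. Across cultures it was thus high where the fibroblast markers were, and it was lower with NRG1 in replicates 2 and 3 alone. The log2 change of Col3a1 was -0.98 (adjusted p = 0.012) with all replicates and -1.48 (edgeR adjusted p = 3.2e-13) without replicate 1, where it was called regulated. With all replicates its adjusted p was 0.0098 with RLE normalization, 0.0097 with at least 10 counts in every sample and 1.8e-06 with no count filter.

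Of the partners of Adgre5, Cd55 was at 618.6, 66.3 and 46.0 CPM in mock and at 462.9, 39.6 and 29.9 CPM in NRG1 samples 1, 2 and 3. It fell in each replicate, by 0.59 on the log2 scale (SE 0.12, edgeR adjusted p = 0.0041), and its level was far higher in replicate 1. Its log2 change was -0.51 (adjusted p = 0.013) without replicate 2 and -0.55 (adjusted p = 0.05) without replicate 3. Thy1, the other partner, was counted in replicate 1 alone, as given above. C1ql3, a C1q-like ligand of Adgrb3, was at 6.55, 29.2 and 20.3 CPM in mock and at 3.33, 8.09 and 6.33 CPM in NRG1 samples 1, 2 and 3, a log2 change of -1.59 (SE 0.20, edgeR adjusted p = 9.6e-05). The Adgrb3 counts were lower with NRG1 as well but lay below the filter. Whether the changes of ligand and receptor are linked was not tested.

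Among the latrophilin ligands, Tenm3 had a log2 change of -0.42 (adjusted p = 0.061) and Flrt3 one of -0.05 (adjusted p = 0.81). Neither passed. Of the partners of Adgrg6, the prion protein gene Prnp fell by 0.95 on the log2 scale (SE 0.13, edgeR adjusted p = 2e-04). Its mean went from 2047 ± 740 to 1069 ± 413 CPM (SD, n = 3 each). The laminin chain Lamc1 and the collagen IV chain Col4a1 were at 0.01 (adjusted p = 0.95) and -0.31 (adjusted p = 0.21). Rtn4r, a Nogo receptor that binds the Adgrb group, had a log2 change of 0.98 (SE 0.31, adjusted p = 0.035).

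**Figure D4:**
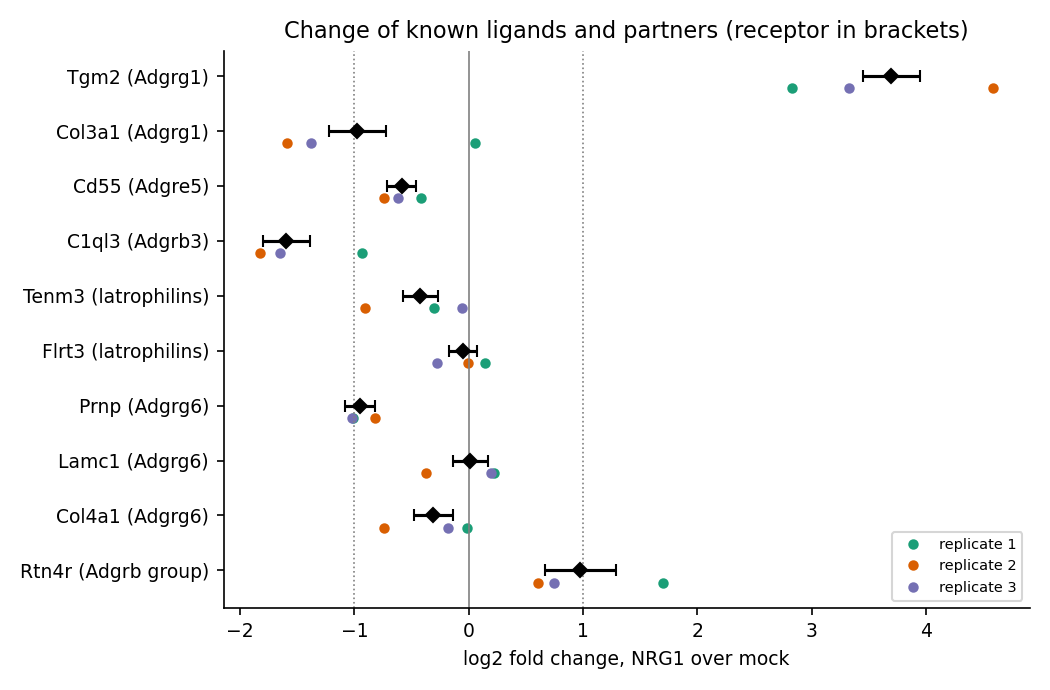
Log2 fold change of NRG1 over mock (horizontal axis) for the 10 listed ligands and partners past the count filter, each with its receptor in brackets. Diamonds and bars are the fitted value and its SE and points are single replicates; Tgm2 lies at 3.69 and C1ql3 at -1.59, and for Col3a1 replicate 1 lies apart from replicates 2 and 3.

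Signalling genes downstream of the receptors passed the test in 1 of 19 and 2 of 13 cases in the lists below, where 11.8% of all genes tested passed in either direction. Of the 19 genes of the Gs and cAMP route past the filter, Prkar2a, a regulatory subunit of protein kinase A, rose by a log2 change of 0.85 (SE 0.13, edgeR adjusted p = 0.00032) and 18 did not pass. The median was -0.19. Gnas, which encodes the Gs protein, was at -0.04, and the adenylyl cyclase Adcy2 was at -1.17 with an adjusted p of 0.036. The log2 ratios of Adcy2 in replicates 1, 2 and 3 were 0.7, -1.8 and -1.3. It was thus higher with NRG1 in replicate 1, and the groups overlap. Among the 13 other transducers, Dock1, an activator of Rac, rose by 0.68 (adjusted p = 0.0011) and Gna11, a Gq-type protein, by 0.53 (adjusted p = 0.0078), and 11 did not pass, with a median of -0.04. Arrb2, a beta-arrestin, was at -1.21 (adjusted p = 0.013), lower in all 3 replicates with no overlap of the groups. Arrb1, the other listed beta-arrestin, was at 0.53 (edgeR adjusted p = 0.011), higher in all 3 replicates and also with no overlap. Summed over each group, Arrb1 rested on 1063 counts in mock and 1867 in NRG1 samples, and Arrb2 on 109 and 61. Dock1 was at 0.66 without replicate 3 (adjusted p = 0.012). Gna11 was at 0.49 without replicate 1 (adjusted p = 0.049), at 0.52 without replicate 3 (0.059) and at 0.55 in DESeq2 (0.014), so that these values no longer passed 0.01. In the reported fit no gene of these 2 lists was called regulated, and with no count filter Adcy2 and Arrb2 were.

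A list of 10 genes of Schwann cell myelination, Sox10 among them, was read beside the receptors. It includes genes the study chose on these samples and is not independent evidence of its direction. Whether these genes depend on Adgrg6 was not tested. Of these, 7 fell and were called regulated and 3 did not pass. The largest changes were those of Fa2h (-1.85), Mal (-1.72), Egr2 (-1.71), Pmp22 (-1.57), Mag (-1.17) and Mbp (-1.07) on the log2 scale, and Pou3f1, a transcription factor that comes before Egr2, was at -0.22 (adjusted p = 0.23).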

How the data were processed

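The labels and methods name rn5 as the rat assembly, TopHat2 2.0.10 as the aligner and htseq with RefSeq genes as the counter. The authors deposited raw counts, 1 sample per file and without normalization, and the 5 htseq summary lines (50.1% to 53.0% of each file's total) were left out here. filterByExpr with a minimum of 10 counts kept 9740 genes, and libraries were scaled by TMM. NRG1 and mock were compared in edgeR 4.0.16 (R 4.3.3) by the quasi-likelihood test. The replicate number entered as a block, since the study analysed its samples as pairs. Benjamini-Hochberg adjustment covered all genes tested. Calls needed an adjusted p of 0.01 or less together with a log2 fold change beyond 1 either way. The SE was obtained as the log2 fold change over the root of the F statistic. Single-replicate log2 ratios used a prior count of 2. No gene lengths were used, so levels are not compared between genes.

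The numbers mark independent experiments in the labels. Deviations of same-numbered samples from their group means correlated across genes with r = 0.906, 0.673 and 0.81, against -0.797 to 0.514 for different numbers. Within a group these deviations cancel out for each gene, so high same-number values lower the different-number values by construction. The size of the gap is thus not a measure of how closely samples pair. No pair of libraries matched within sampling noise. The scripts were tested on simulated data, and DESeq2 1.42.0 was an alternative. The receptors and all gene lists were chosen with earlier results of these data known. Named genes were the receptors, family genes past the filter and up to 6 genes per list at an adjusted p of at most 0.01. Others were named after their values were seen (Col3a1, Tek, Ddx39a, Adcy2, Arrb1, Arrb2, Gnas, Pi16, Pou3f1 and the ligands that did not pass). A planned rule to name genes patterned like Adgrg6 was not applied. A planned signalling list and some listed genes are not reported here.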

Additional observations from a re-analysis of the deposited data

How the results depend on the processing

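The count of called receptors was 3 in the reported fit, 2 with at least 10 counts in every sample (Adgrf5 not tested), 4 with no count filter (Adgrb3 added) and 3 under DESeq2, RLE normalization, library size only and an adjusted p of 0.05. The replicate block decided the calls. With no replicate block, 0 receptors were called or passed an adjusted p of 0.01 (2 had an unadjusted p under 0.05), 0 ligands were called, and the adjusted p was 0.49 for Adgre5, 0.16 for Adgrf5 and 0.25 for Adgrl3. With the pairing, these lay at or below 0.00011, 0.00024 and 5.6e-05 in every alternative that tested them. Leaving out one replicate gave 3 to 4 called receptors, 4 past the adjusted p in each case (called were Adgrb3, Adgrf5 and Adgrl3 without replicate 1, Adgre5, Adgrf5 and Adgrl3 without replicate 2, and all 4 without replicate 3), 2 to 3 called ligands and 0 to 1 called Gs and cAMP genes. The Adgrb3 calls without replicate 1 or 3 rest on its passing the filter through mock samples only, as given above. Without replicate 1, Col3a1 was added to the ligands and Adcy2 to the Gs and cAMP genes, and without replicate 2 Prnp was added to the ligands. Adcy2 was also the 1 Gs and cAMP gene called with no count filter and at an adjusted p of 0.05. Over all genes, 152 were called up and 186 down, against 139 and 123 under DESeq2, 202 and 299 without replicate 1, and 0 and 0 with no replicate block (1334 at an unadjusted p under 0.05). Across alternatives the log2 fold change ranged from 0.93 to 1.14 for Adgre5, from 1.04 to 1.12 for Adgrl3, from -2.52 to -2.20 for Adgrf5, from 0.37 to 0.48 for Adgrg1, from 0.16 to 0.54 for Adgrl1 and from 0.24 to 0.45 for Adgrl2, with no change of sign. The log2 change of Col3a1 was -0.00095 with no replicate block. Depth limits Adgrf5, Adgrb2 and Adgrb3, and 3 pairs limit all p-values.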
